A study of Mus musculus with 6 samples.

Results

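Transcripts of proteins that carry, store or move iron, copper, zinc and selenium were followed in 393P cells, a mouse lung cancer line, after the repressor Zeb1 had been forced on them. The set holds 10 genes: the secreted carriers Cp, Selenop and Trf, the iron transporters Tfrc, Slc40a1 and Slc11a2, the ferritin subunits Fth1 and Ftl1, and the metallothioneins Mt1 and Mt2. A probe set, the group of short probes with which the array reads a transcript, was taken as a member when the platform annotation named 1 of these genes and no other gene. This gave 26 probe sets for 8 of the 10 genes, out of 18193 genes with such a probe set on the array. Trf and Ftl1 had no probe set of their own. The set was put together with the differences between the groups in view, so every difference of a member is given as a description, without a p-value.

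Cells with the Zeb1 vector (3 arrays) were compared with cells with the empty pcDNA control vector (3 arrays), each array being 1 numbered replicate. All cells had been transfected with Lipofectamine reagents, selected for lasting expression and kept in RPMI with fetal bovine serum. The labels do not say which promoter drives Zeb1 or whether each line is a clone or a pool. They also do not say whether the replicates of a group came from separate transfections, so p-values measure only the spread between replicates. The arrays had been scaled by the authors to a common mean, and signals are given on the log2 scale. Signals under log2 4.45, the 25th percentile of all values, were treated as lying at a floor. A fold is given as "at least" where an array lay at the floor or the lower group's mean was under 6.32, the median of all values. Zeb1 itself read 9.71, 9.59 and 9.78 in Zeb1 vector cells, against 4.45, 4.45 and 4.50 in control vector cells, at least 37.4-fold higher. The other tested Zeb1 probe set rose by 1.17 on the log2 scale, and it was the brighter one when any 1 Zeb1 vector array was left out, with a difference of 1.02 at the lowest. The 9 lung epithelial markers summed to linear signals of 57986 to 62235 in Zeb1 vector arrays and 89867 to 95734 in control vector arrays. The keratin Krt8 was bright in both groups (between 14.26 and 14.35 in Zeb1 vector cells and between 14.46 and 14.48 in control vector cells). The adhesion genes were lower, with Epcam at 6.22 to 7.01 in Zeb1 vector cells against 13.65 to 13.80 in control vector cells, and Cdh1 at 10.07 to 10.33 in Zeb1 vector cells against 14.15 to 14.21 in control vector cells. The surfactant gene Sftpb went the other way without overlap, at 8.38 to 8.54 in Zeb1 vector cells against 7.93 to 8.29 in control vector cells. Krt18, Krt19, Sftpc and Scgb1a1 overlapped between the groups. The lung lineage factor Nkx2-1 did not exceed 4.99 in Zeb1 vector cells or 5.13 in control vector cells. Each array measured many cells together, so fewer cells with a transcript and less transcript per cell cannot be told apart.

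Cells take up iron as a complex with transferrin, which the transferrin receptor carries into endosomes. There the metal is reduced, leaves through the transporter encoded by Slc11a2, and is used, stored in ferritin, or exported by ferroportin, the product of Slc40a1. Exported iron is oxidised by copper enzymes such as ceruloplasmin so that transferrin can bind it. Iron regulatory proteins bind a hairpin in several of these mRNAs and thereby slow ferritin and ferroportin synthesis and stabilise the receptor's transcript when iron is scarce. Metallothioneins are small cysteine-rich proteins that buffer zinc and copper, and selenoprotein P is the plasma protein that delivers selenium to other tissues.

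The 2 secreted carriers with probe sets of their own were far higher in Zeb1 vector cells, from control signals near the floor. The importers and the exporter of iron were lower. Ferritin heavy chain was slightly higher, Mt2 was slightly lower, and Mt1 differed little. Among the 19 member probe sets that passed the filter on dim signals, 16 were called at an adjusted p of 0.05, 8 of them higher and 8 lower. Over all 20594 probe sets tested, 46.1% were called, 24.5% higher and 21.6% lower. Because the members were chosen on this comparison, nothing is read from the excess. In 16 of the 19 every array of one group lay above every array of the other, as in 55.4% of all tested probe sets. The 5 Cp probe sets and the 1 Selenop probe set among the 19 passed the filter only through the Zeb1 vector arrays. The filter thus favoured their calls and their lack of overlap, and nothing is read from either. The 7 members without a test were 4 dim probe sets and 3 Tfrc control probe sets that the manufacturer places on every array.

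**Figure D1:**
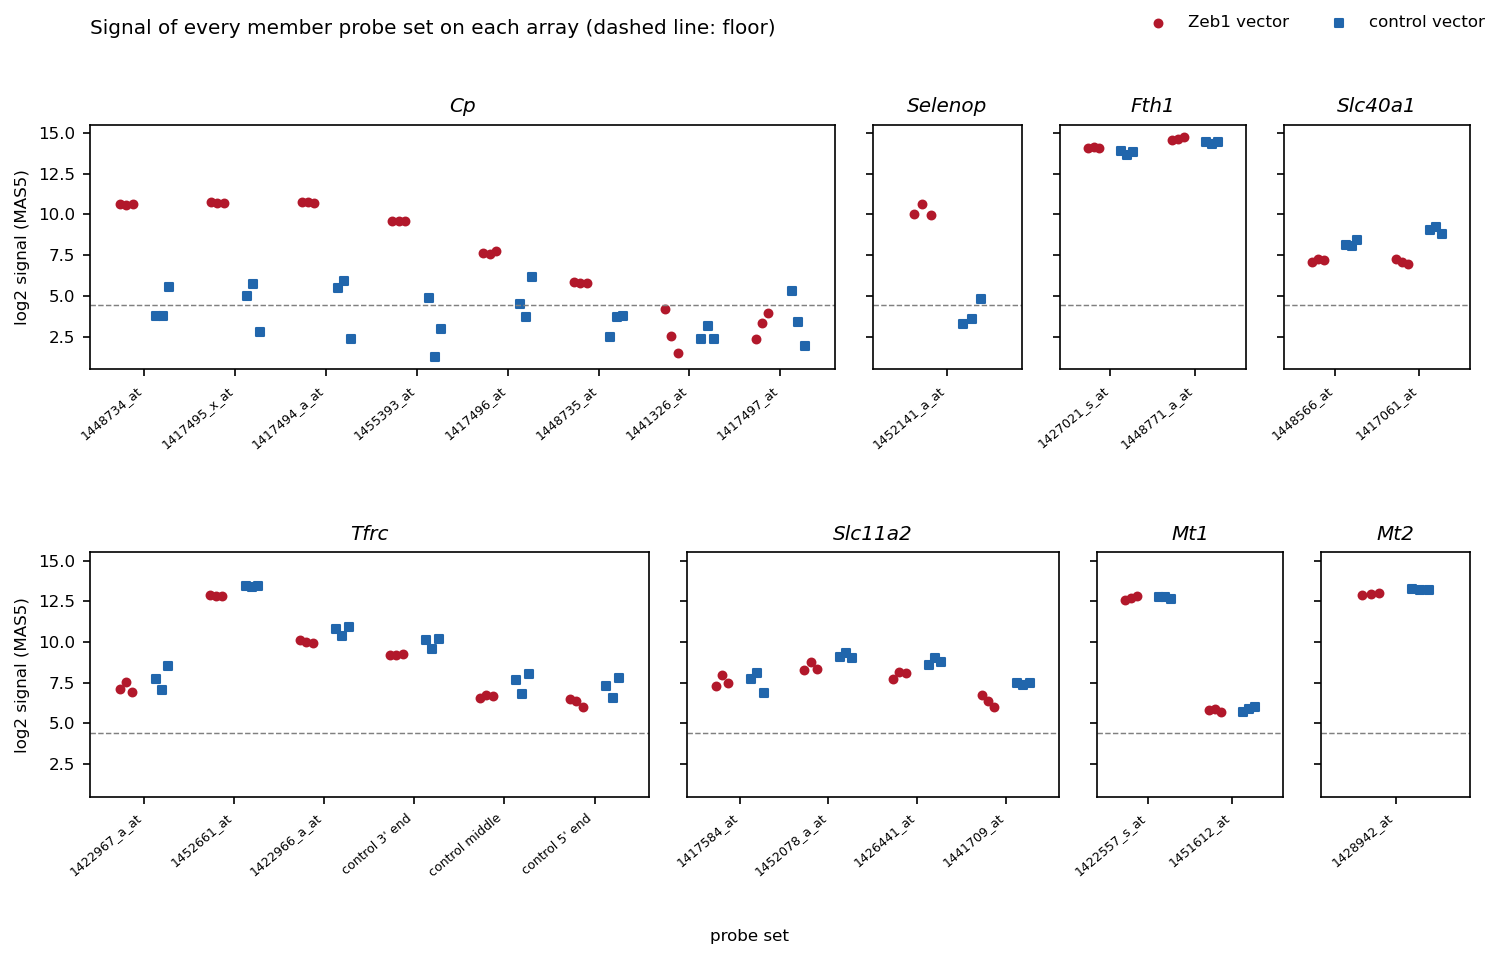
Log2 MAS5 signal (y axis) of all 26 member probe sets (x axis), grouped by gene, with 1 point per array, red circles for the 3 Zeb1 vector arrays and blue squares for the 3 control vector arrays. The dashed line is the floor at 4.45. Cp and Selenop separate the groups by the widest margins among the genes shown, and Fth1, Mt2 and 1 of the 2 Mt1 probe sets are bright in both groups.

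Selenop encodes selenoprotein P, whose many selenocysteines carry selenium in plasma. Its 1 probe set read 10.04, 10.64 and 9.97 in Zeb1 vector cells, against 3.29, 3.60 and 4.79 in control vector cells. Every Zeb1 vector array was thus far above every control array, and 2 of the 3 control arrays lay under the floor. With the floor applied the means were 10.21 ± 0.37 in Zeb1 vector cells and 4.56 ± 0.20 in control vector cells (SD, n = 3 each), a log2 difference of 5.65 (SE 0.22), or at least 50.3-fold. The size of this bound moves with the floor, to a log2 difference of 3.89 when the floor was set to the median of all values and 6.32 with none.

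Cp encodes ceruloplasmin, the main copper protein of plasma and a ferroxidase. It was read by 8 probe sets, which did not give the same picture. On 1417494_a_at, which represented Cp at the gene level, the signals were 10.76, 10.76 and 10.69 in Zeb1 vector cells, against 5.51, 5.94 and 2.38 in control vector cells. On 1448734_at they were 10.61, 10.57 and 10.61 in Zeb1 vector cells, against 3.75, 3.75 and 5.55 in control vector cells. The Zeb1 vector arrays lay within a narrow band on both, while the control arrays scattered around the floor.

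The log2 differences of the 4 brightest Cp probe sets were 5.78 (1448734_at), 5.64 (1417495_x_at), 5.44 (1417494_a_at) and 4.98 (1455393_at), which correspond to at least 55.1-fold, 50.02-fold, 43.4-fold and 31.6-fold. Another, 1417496_at, was dimmer in Zeb1 vector cells, at 7.65, 7.58 and 7.73, against 4.51, 3.69 and 6.16 in control vector cells, for a difference of 2.62. All of these are lower bounds, since at least 1 control array lay at the floor on each, and a floor at the median of all values brought the differences of 1455393_at and 1417496_at to 3.25 and 1.33. The remaining 3 probe sets did not pass the filter. Of these, 1448735_at read 5.84, 5.79 and 5.77 in Zeb1 vector cells and was at the floor on all 3 control arrays, whereas 1441326_at was at the floor on all 6 arrays and 1417497_at on 5 of them. Which exons each probe set reads is not known here, so transcript forms of Cp cannot be told apart from probes that respond poorly.

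Markers of cell types that make these plasma proteins in the body were read beside them, and their part in the higher Cp and Selenop signals was not tested. Of 18 liver-secreted plasma proteins 17 had a probe set, and the sum of their linear signals ran from 4895 to 5745 in Zeb1 vector arrays and from 3991 to 4215 in control vector arrays. The fetal plasma protein gene Afp was bright in both groups, at 11.40 to 11.71 in Zeb1 vector cells and 11.56 to 11.66 in control vector cells. Fgb, Fgg and Hp lay at the floor on all 6 arrays, Alb did not exceed 6.08 in Zeb1 vector cells or 7.001 in control vector cells, and the retinol carrier Rbp4 read 10.51 to 10.72 in Zeb1 vector cells, against 8.05 to 8.27 in control vector cells. The dim Apoa1 was also higher without overlap, at 5.62 to 6.09 in Zeb1 vector cells and 4.81 to 5.19 in control vector cells. With the floor applied, the rest of this list overlapped between the groups. The 7 leukocyte and macrophage markers summed to 5017 to 5396 in Zeb1 vector arrays and 1452 to 1659 in control vector arrays. Cd14 alone of these markers separated the groups, from 12.09 to 12.26 in Zeb1 vector cells and from 9.74 to 9.99 in control vector cells. All the others overlapped between the groups. Csf1r ran from 7.38 to 7.77 in Zeb1 vector cells and from 7.76 to 7.98 in control vector cells. Cd68 ran from 7.37 to 7.62 in Zeb1 vector cells and from 7.55 to 7.73 in control vector cells. The pan-leukocyte marker Ptprc stayed at or below 5.23 in Zeb1 vector cells and 5.43 in control vector cells. Fibroblast markers summed to 324 to 423 in Zeb1 vector arrays and 294 to 468 in control vector arrays, with Pdgfrb at the floor throughout. Within this sum, the dim collagen genes Col3a1 and Col1a1 were higher in Zeb1 vector cells without overlap. Col3a1 read 6.09 to 6.31 in Zeb1 vector cells and 4.65 to 5.0045 in control vector cells. Col1a1 read 5.59 to 6.30 in Zeb1 vector cells and did not exceed 5.57 in control vector cells. Dcn leaned lower with overlap, at most 5.04 in Zeb1 vector cells and 6.33 in control vector cells. Endothelial markers summed to 288 to 501 in Zeb1 vector arrays and 346 to 462 in control vector arrays, with Pecam1 at the floor throughout. The 3 erythroid markers with a probe set summed to 156 to 263 in Zeb1 vector arrays and 195 to 284 in control vector arrays. Among them Epor was lower without overlap, at 6.83 to 7.20 in Zeb1 vector cells and 7.35 to 7.63 in control vector cells. Hba-a1 and Alas2 overlapped.

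Among genes outside the set, those whose 6 array values lay nearest to Cp, by Euclidean distance of log2 signals centred on each gene's mean, were Rcn1 at 0.54, Cacna2d1 at 0.64 and Gem at 0.80. Those nearest to Selenop were Bmp2 at 0.56, Nrn1 at 0.60 and Khdrbs3 at 0.75. These are genes with differences of like size, from 4.99 to 5.71 on the log2 scale, and the closeness over 6 arrays says no more than that.

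Trf encodes transferrin, the plasma iron carrier. Its only probe set also names the neighbouring gene Srprb, and it did not exceed 3.64 in Zeb1 vector cells or 2.23 in control vector cells, below the floor on all 6 arrays. Of the secreted carriers, transferrin therefore had no signal above the floor in either group on the probe set shown here.

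Tfrc encodes the transferrin receptor, through which most proliferating cells take up iron. Its brightest probe set, 1452661_at, read 12.89, 12.82 and 12.81 in Zeb1 vector cells, against 13.43, 13.39 and 13.43 in control vector cells. The groups were tight and well apart, with a log2 difference of -0.58 (SE 0.049), 1.49-fold lower in Zeb1 vector cells. On 1422966_a_at the signals were 10.09, 10.02 and 9.93 in Zeb1 vector cells, against 10.79, 10.38 and 10.92 in control vector cells, a difference of -0.68. The third tested probe set, 1422967_a_at, overlapped between the groups, with a mean of 7.20 ± 0.31 in Zeb1 vector cells and 7.78 ± 0.76 in control vector cells (SD, n = 3 each), and was not called. Without control vector replicate 2 its difference was -0.94 and it was called, whereas without control vector replicate 3 it was -0.18 and was not called. It was called under 1 of 12 alternatives.

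The array also carries control probe sets for the 3′ end, the middle and the 5′ end of the Tfrc transcript, which serve as a check of RNA integrity. Their log2 differences were -0.72, -0.86 and -0.91, and on none of them did the groups overlap. However, control vector replicate 2 came close to the Zeb1 vector arrays (at most 6.72 in Zeb1 vector cells and 6.84 in that replicate on the middle probe set). The 3′ signal minus the 5′ signal was 2.93 ± 0.29 in Zeb1 vector cells and 2.73 ± 0.28 in control vector cells (SD, n = 3 each). For Gapdh the same measure was -0.37 ± 0.053 in Zeb1 vector cells and -0.32 ± 0.013 in control vector cells. The lower Tfrc signal in Zeb1 vector cells was therefore seen at both ends and in the middle of the transcript, while the 3′ to 5′ measure of Tfrc differed by less than its spread between replicates.

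Slc40a1 encodes ferroportin, the only known iron exporter of mammalian cells, and was lower on both of its probe sets. On 1417061_at the signals were 7.27, 7.06 and 6.99 in Zeb1 vector cells, against 9.07, 9.25 and 8.79 in control vector cells. No array of one group came near the other, and the log2 difference was -1.93 (SE 0.16), 3.81-fold lower in Zeb1 vector cells. On 1448566_at the signals were 7.11, 7.24 and 7.23 in Zeb1 vector cells, against 8.10, 8.05 and 8.40 in control vector cells, a difference of -0.99, or 1.99-fold lower. Both probe sets thus pointed the same way and differed in size.

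Slc11a2 encodes a proton-coupled transporter of ferrous iron that works at the plasma membrane and in endosomes. Of its 4 probe sets 3 were lower in Zeb1 vector cells without overlap. On 1452078_a_at, the brightest, the signals were 8.31, 8.77 and 8.35 in Zeb1 vector cells, against 9.10, 9.34 and 9.03 in control vector cells, a difference of -0.68 (SE 0.15). The differences of 1426441_at and 1441709_at were -0.81 and -1.06. The fourth, 1417584_at, had overlapping groups, at 7.59 ± 0.34 in Zeb1 vector cells and 7.55 ± 0.63 in control vector cells (SD, n = 3 each). Alternative ends of the Slc11a2 transcript are known, with and without the iron-responsive hairpin, and which of them each probe set reads is not known here.

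Fth1 encodes the ferritin heavy chain, the ferroxidase subunit of the iron storage shell. On 1448771_a_at it read 14.55, 14.62 and 14.72 in Zeb1 vector cells, against 14.45, 14.33 and 14.42 in control vector cells. On 1427021_s_at it read 14.09, 14.16 and 14.09 in Zeb1 vector cells, against 13.92, 13.66 and 13.83 in control vector cells. The groups did not overlap on either, but the log2 differences were only 0.23 and 0.31, or 1.17-fold and 1.24-fold higher, and the first was no longer called with no filter or with no intensity trend in the variance model. The signals lay close to the highest value on any array, between 14.88 and 15.03, and the part of signal saturation was not tested.

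Ftl1 encodes the ferritin light chain, which helps the iron core to form. Its 3 probe sets also name the processed copy Ftl1-ps2, and 1 of them names microRNA genes as well, so they were left out of the tests. The brightest, 1418364_a_at, averaged 13.93 ± 0.065 in Zeb1 vector cells and 13.84 ± 0.044 in control vector cells (SD, n = 3 each), a difference of 0.08. The others differed by 0.12 (1422302_s_at) and 0.09 (1422301_at). Ferritin transcripts of both chains were thus bright in both groups and differed by a small amount.

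Mt1 and Mt2 encode the 2 widely expressed metallothioneins and lie next to each other on chromosome 8. The bright Mt1 probe set, 1422557_s_at, read 12.57, 12.69 and 12.85 in Zeb1 vector cells, against 12.77, 12.76 and 12.66 in control vector cells. The groups overlapped, with a log2 difference of -0.03 (SE 0.076). The other Mt1 probe set, 1451612_at, was dim in both groups, at 5.81 ± 0.12 in Zeb1 vector cells and 5.86 ± 0.15 in control vector cells (SD, n = 3 each), and did not pass the filter.

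Mt2 read 12.88, 12.98 and 13.04 in Zeb1 vector cells, against 13.27, 13.19 and 13.22 in control vector cells. All 3 Zeb1 vector arrays were below all 3 control arrays, with a log2 difference of -0.26 (SE 0.057), 1.20-fold lower. The 2 genes are close copies, and probes of one may also bind transcripts of the other. The nearest genes to Mt1 in array pattern were Dgcr6, Dgkz and Nsun4, at distances of 0.046, 0.071 and 0.081, all of them flat across the 6 arrays.

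**Figure D2:**
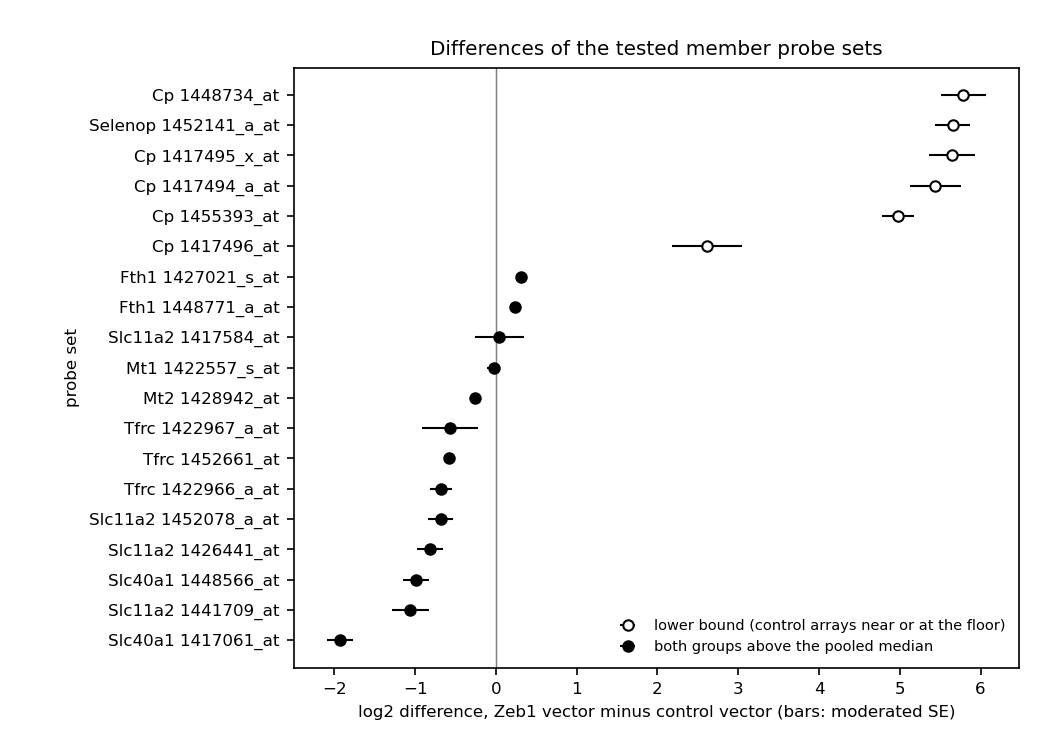
Log2 difference, Zeb1 vector minus control vector (x axis), of the 19 tested member probe sets (y axis), with moderated standard errors as bars. Open circles are lower bounds because control signals lay near or at the floor. The 6 probe sets of Cp and Selenop lie above 2.6, and all others lie between -1.93 and 0.31.

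Sequence upstream of the transcription start, 250 bases per start in RefSeq's GRCm38.p6, was on hand for 7 of the 10 genes, as 12 windows. It was searched on both strands for CACCTG, the E-box form that Zeb1's zinc fingers bind, and for TGCACNC or TGCGCNC, the core of the metal response element read by the zinc sensor Mtf1. CACCTG was found in 4 of the 12 windows, 1 each of Selenop, Tfrc, Mt2 and Fth1, and in 17.2% of all 32851 windows. The metal response core was found in 3 of the 12, those of Mt2, Mt1 and Tfrc, and in 21.4% of all windows. The Selenop and Tfrc windows are shown because these genes lay on opposite sides of the comparison and each holds 1 E-box, in capitals, starting 226 and 102 bases before the start. The Mt2 window is shown for its 3 metal response cores, in capitals, the nearest 50 bases before the start. It also holds a CACCTG match, in lower case, that starts 169 bases before the start and overlaps none of them. The lines give Selenop at chr15:3270517-3270766, Tfrc at chr16:32608646-32608895 and Mt2 at chr8:94172368-94172617, all on the plus strand and 5′ to 3′.
Selenop: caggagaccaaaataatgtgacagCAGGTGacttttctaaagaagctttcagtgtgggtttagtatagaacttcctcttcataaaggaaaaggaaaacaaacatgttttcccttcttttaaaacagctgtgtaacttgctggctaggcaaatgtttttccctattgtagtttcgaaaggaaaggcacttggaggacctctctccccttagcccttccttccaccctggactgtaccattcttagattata
Tfrc: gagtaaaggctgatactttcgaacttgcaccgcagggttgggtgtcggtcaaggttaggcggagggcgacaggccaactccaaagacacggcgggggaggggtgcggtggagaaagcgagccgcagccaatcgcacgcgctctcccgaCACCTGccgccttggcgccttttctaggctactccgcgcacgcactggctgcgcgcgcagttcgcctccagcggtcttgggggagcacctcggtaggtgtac
Mt2: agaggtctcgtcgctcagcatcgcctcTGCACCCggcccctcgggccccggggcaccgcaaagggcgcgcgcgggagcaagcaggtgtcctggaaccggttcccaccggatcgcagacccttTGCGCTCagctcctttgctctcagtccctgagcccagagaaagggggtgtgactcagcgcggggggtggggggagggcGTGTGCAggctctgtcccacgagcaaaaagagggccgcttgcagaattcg

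An E-box match thus stood upstream of 2 genes that were higher in Zeb1 vector cells, Selenop and Fth1, and of 2 that were lower, Tfrc and Mt2. The matches describe these letters and do not show that a factor binds there.

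On their chromosomes, the members had neighbours that moved in various ways. The tested genes nearest to Selenop, on 1 side of it, were the growth hormone receptor gene Ghr, which rose by 1.66 on the log2 scale (adjusted p = 1.91e-06), and Fbxo4, which rose by 0.64 (adjusted p = 0.000732). Beside Cp, Hps3 rose by 0.74 (adjusted p = 0.000494), while 4632415L05Rik on the other side changed by 0.60 without a call (adjusted p = 0.11). Beside Slc40a1, the zinc transporter gene Slc39a10 rose by 0.76 (adjusted p = 2.5e-05) and Wdr75 fell by 0.28 (adjusted p = 0.00269).

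The other genes of the pathways were taken from 7 lists and tested with 1 probe set per gene. Over all 11893 genes tested 50.5% were called, 26.4% up and 24.1% down, with a median log2 difference of 0.01, and in 58.2% of them the groups did not overlap. The lists are described by their counts beside this background, and none was tested as a set. They were chosen with earlier results of these data known, and many named genes are the largest called changes of their list. The adjusted p-values of named genes are therefore descriptions and not fresh tests.

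In the list of iron uptake and traffic 9 of 17 tested genes were called, 6 up and 3 down, with a median of 0.18. Hfe, whose product binds the transferrin receptor and takes part in iron sensing, read 7.84, 7.94 and 7.86 in Zeb1 vector cells, against the floor on 2 control arrays and 5.89 on the third, a rise of at least 7.75-fold (adjusted p = 0.000125). Steap3, the endosomal reductase that turns ferric into ferrous iron, rose by at least 5.78-fold (adjusted p = 0.000234), and its other tested probe set rose by 1.35 on the log2 scale. Slc39a8, a carrier of zinc, manganese and iron, was at least 4.06-fold higher (7.58 ± 0.30 in Zeb1 vector cells and 5.56 ± 0.28 in control vector cells, SD, n = 3 each, adjusted p = 0.000133). Hfe, Steap3 and Slc39a8 passed the filter only through the Zeb1 vector arrays, where they were high. The filter thus favoured a difference, and their adjusted p-values are given as descriptions. All 3 were also called with no filter.

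Lcn2, a secreted protein that captures bacterial iron chelators, was at the floor on all 3 Zeb1 vector arrays and read 6.89, 6.44 and 7.11 in control vector cells, at least 5.16-fold lower (adjusted p = 0.000293). Lcn2 passed the filter only through the control vector arrays, so this adjusted p is likewise a description. When the floor was raised to the median of all values its log2 change was -0.49 and the call was lost (adjusted p = 0.0513, over a range of 0.000108 to 0.0513 for its 13 alternatives). Snx3, a sorting nexin that returns the transferrin receptor to the cell surface, fell by 0.75 (adjusted p = 1e-05), and Slc25a37, the mitochondrial iron importer mitoferrin, fell by 0.61 (adjusted p = 0.00291). Tfr2, a liver and erythroid relative of Tfrc, changed by 0.18 without a call (adjusted p = 0.606). The reductase and the receptor's partner were thus higher while the receptor itself was lower.

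Among 16 tested genes of iron storage, export, sensing and haem turnover 9 were called, 4 up and 5 down, with a median of 0.06. The rises numbered 2 without Zeb1 vector replicate 1 or 2 and without control vector replicate 1 or 3. Fbxl5, the iron-sensing ubiquitin ligase subunit that marks iron regulatory proteins for destruction, read 9.98, 10.08 and 10.07 in Zeb1 vector cells, against 10.79, 10.75 and 10.60 in control vector cells. It fell by 0.67 without overlap (adjusted p = 8.78e-05). Of the 2 iron regulatory proteins, Aco1 had a change of 0.15 (adjusted p = 0.0582) and Ireb2 rose by 0.31 (adjusted p = 0.0489). Neither call was firm: Aco1 was called under 2 of 14 alternatives (adjusted p from 0.0129 to 0.737) and Ireb2 under 5 of 14 (0.0128 to 0.177).

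Hmox1, the inducible haem oxygenase that frees iron from haem, fell by 0.91 (7.60 ± 0.44 in Zeb1 vector cells and 8.51 ± 0.20 in control vector cells, SD, n = 3 each, adjusted p = 0.00587), a call lost with no filter (adjusted p = 0.0608, over a range of 0.00241 to 0.0608 for its 13 alternatives). The iron chaperone Pcbp2, which hands iron to ferritin, fell by 0.70 (adjusted p = 1.98e-06). Fech, which inserts iron into haem, rose by 0.86 (adjusted p = 0.000599) and Blvrb, a biliverdin reductase, by 0.38 (adjusted p = 0.00991). Ncoa4, the receptor for the breakdown of ferritin, changed by 0.16 and was not called (adjusted p = 0.18), nor was the gene of the iron hormone hepcidin, Hamp (0.32, adjusted p = 0.355). Heph, a membrane-bound relative of ceruloplasmin, did not exceed 4.56 in Zeb1 vector cells or 4.58 in control vector cells and was not tested.

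Of 14 tested genes of iron-sulfur cluster assembly 7 were called, 2 up and 5 down, with a median of -0.14. Fdx1, a mitochondrial ferredoxin, fell by 0.76 (adjusted p = 0.000382). Cisd1, an iron-sulfur protein of the outer mitochondrial membrane, fell by 0.69 (adjusted p = 2.31e-05), and Iscu, the scaffold on which clusters form, fell by 0.67 (adjusted p = 4.99e-05). Cisd2, the endoplasmic reticulum relative of Cisd1, rose by 0.74 (adjusted p = 0.00214) and the chaperone gene Hspa9 by 0.28 (adjusted p = 0.00144). The share called was close to that of all genes.

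Copper genes were called mostly upward, 7 of 14 up and 1 down, with a median of 0.32. Commd1, which takes part in the sorting of copper pumps, read 11.22, 11.18 and 11.10 in Zeb1 vector cells, against 10.21, 9.53 and 9.87 in control vector cells, a rise of 1.29 (adjusted p = 4.37e-05). Atp7a, the pump that loads copper into secreted enzymes and exports it, rose by 0.66 (9.68 ± 0.057 in Zeb1 vector cells and 9.01 ± 0.14 in control vector cells, SD, n = 3 each, adjusted p = 0.000412). Xiap, an apoptosis inhibitor that also binds copper, rose by 0.75 (adjusted p = 0.000467), but by 0.19 with the mean of its probe sets, where it was not called (adjusted p = 0.304, over a range of 8.77e-05 to 0.304 for its 14 alternatives).

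The copper importer gene Slc31a1 had a change of 0.12 (adjusted p = 0.373), although its other probe set rose by 0.67, and with the mean of both it was called (0.40, adjusted p = 0.00424, over a range of 0.00424 to 0.698 for its 14 alternatives). The chaperone gene Atox1 changed by 0.13 and was not called (adjusted p = 0.0728). Its 2 other tested probe sets had differences of -0.59 and 0.13, neither called, and the mean of its probe sets gave -0.11. Cox19, an assembly factor of cytochrome oxidase, fell by 0.37 (adjusted p = 0.0423), a call kept under 8 of 14 alternatives (adjusted p from 0.0152 to 0.169). The call was lost without Zeb1 vector replicate 1 or 2 and without control vector replicate 1 or 3, among others. Atp7b, the liver copper pump that loads ceruloplasmin there, did not pass the filter, with at most 6.41 in Zeb1 vector cells and 6.97 in control vector cells on any of its 3 probe sets.

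**Figure D3:**
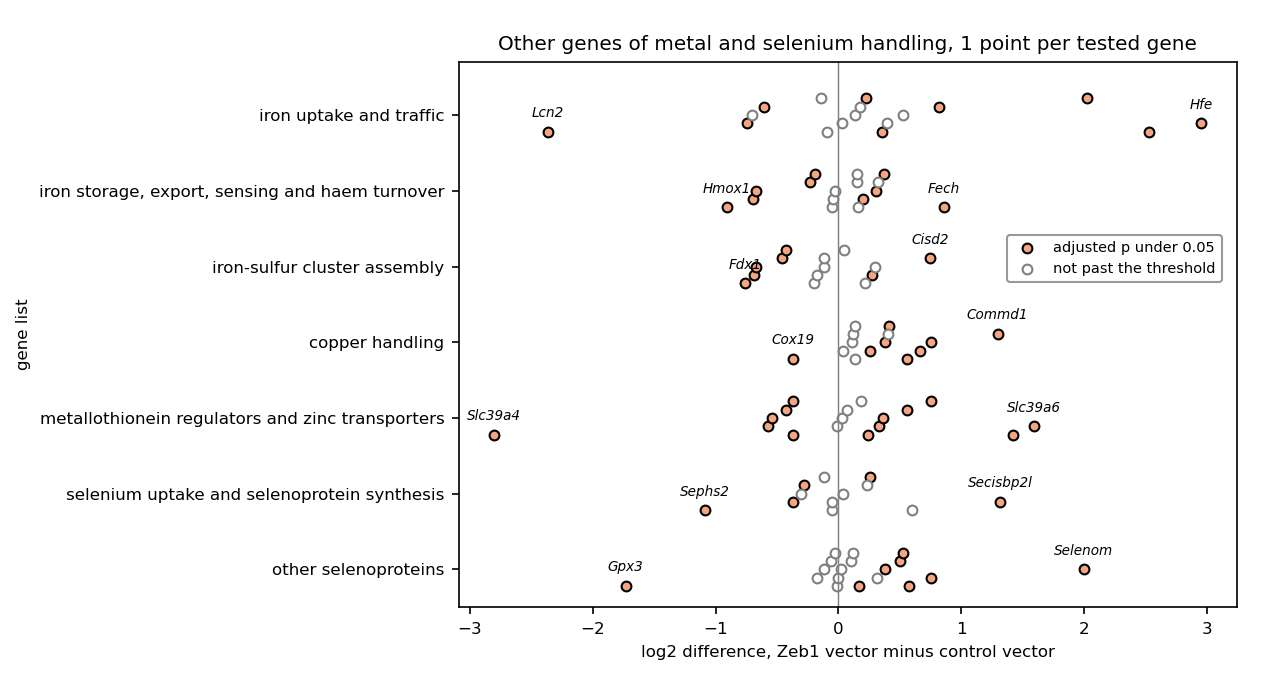
Log2 difference, Zeb1 vector minus control vector (x axis), of each tested gene in the 7 lists (y axis), filled where the adjusted p was under 0.05 and open where it was not. The lowest and highest gene of each list are named, from -2.80 (Slc39a4) to 2.95 (Hfe). Vertical offsets within a list only separate the points.

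Zinc transporters and the metallothionein regulator moved in both directions, with 13 of 17 tested genes called, 7 up and 6 down, and a median of 0.07. Slc39a4, the intestinal zinc importer, read 6.76, 6.71 and 6.28 in Zeb1 vector cells, against 9.30, 9.50 and 9.34 in control vector cells, 6.96-fold lower (adjusted p = 4.46e-07). Slc39a6, an importer first described as oestrogen-induced, read 12.64, 12.72 and 12.69 in Zeb1 vector cells, against 11.08, 11.14 and 11.05 in control vector cells, 3.02-fold higher (adjusted p = 1.81e-08). Its partner gene Slc39a10 rose by 0.76, as given above, and the vesicular zinc exporter gene Slc30a4 by 1.42 (adjusted p = 1.57e-06).

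The zinc exporter of the plasma membrane, Slc30a1, a known target of Mtf1, fell by 0.57 (adjusted p = 0.000991), whereas its other tested probe set had a change of 0.02, and with the mean of both the call was lost (-0.28, adjusted p = 0.066, over a range of 0.00056 to 0.066 for its 14 alternatives). Slc30a6, a transporter of the secretory pathway, fell by 0.54 (adjusted p = 0.000621). Mtf1 itself, the zinc sensor that drives metallothionein transcription, rose by 0.33 (adjusted p = 0.0308) on 1 of its 3 tested probe sets and kept the call under 6 of 14 alternatives (adjusted p from 0.0155 to 0.856). Mt3, the brain metallothionein, did not exceed 6.02 in Zeb1 vector cells or 5.61 in control vector cells and was not tested.

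Selenium uptake and selenoprotein synthesis gave 5 calls among 12 tested genes, 2 up and 3 down, with a median of -0.05. Sephs2, which makes the activated selenium donor and is itself a selenoprotein, read 10.33, 10.37 and 10.40 in Zeb1 vector cells, against 11.39, 11.56 and 11.40 in control vector cells, a fall of 1.08 (adjusted p = 1.38e-06), with both of its other tested probe sets called in the same direction. Secisbp2l, a paralogue of the selenocysteine insertion factor Secisbp2, rose by 1.32 (adjusted p = 5.19e-06), while Secisbp2 had a change of -0.11 (adjusted p = 0.612). The kinase gene Pstk fell by 0.37 (adjusted p = 0.0141), Trnau1ap, whose product binds the selenocysteine tRNA, fell by 0.28 (adjusted p = 0.0367), and Sephs1 rose by 0.26 (adjusted p = 0.0293). The calls of Sephs1 and Trnau1ap were kept under 7 and 8 of 14 alternatives (adjusted p from 0.022 to 0.399 and from 0.00747 to 0.144).

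The count of this list was 3 without Zeb1 vector replicate 2 or 3 and without control vector replicate 1 or 3. It held 1 rise without Zeb1 vector replicate 2 or 3 or control vector replicate 1 or 2, and 1 fall without control vector replicate 3. On their brightest probe sets the receptors that take up selenoprotein P were not called, Lrp8 with a change of 0.23 (adjusted p = 0.155) and Lrp2 with 0.04 (adjusted p = 0.937). Of the other tested Lrp8 probe sets, 1 rose by 0.94 and 1 had a difference of -0.16 and was not called. The other tested Lrp2 probe set fell by 1.78, and with the mean of both the gene was called (-0.87, adjusted p = 0.0208, over a range of 0.0208 to 1.0 for its 13 alternatives).

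Among the other selenoproteins 8 of 18 tested genes were called, 7 up and 1 down, with a median of 0.11. Selenom, a selenoprotein of the endoplasmic reticulum, read 10.43, 10.49 and 10.58 in Zeb1 vector cells, against 8.55, 8.45 and 8.499 in control vector cells, 3.99-fold higher (adjusted p = 7.22e-08). Selenok, also of that compartment, rose by 0.75 (adjusted p = 3.74e-05), Selenon by 0.57 (adjusted p = 0.000772) and the cytosolic glutathione peroxidase Gpx1 by 0.50 (adjusted p = 3.97e-05). Gpx3, the secreted plasma glutathione peroxidase, read 5.10, 6.10 and 5.80 in Zeb1 vector cells, against 7.36, 7.42 and 7.41 in control vector cells, at least 3.32-fold lower (adjusted p = 0.000698). Gpx3 passed the filter only through the control vector arrays, so this adjusted p is a description. The 2 plasma selenoproteins, Selenop and Gpx3, thus lay on opposite sides.

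The lipid peroxide reductase Gpx4 had a change of -0.01 (adjusted p = 0.907) and the thioredoxin reductase Txnrd1 of -0.06 (adjusted p = 0.393). Both were bright, at 13.27 ± 0.064 in Zeb1 vector cells and 13.28 ± 0.096 in control vector cells for Gpx4, and 12.36 ± 0.046 in Zeb1 vector cells and 12.42 ± 0.0077 in control vector cells for Txnrd1 (SD, n = 3 each). The 2 other tested Txnrd1 probe sets had larger differences, -0.43 and -0.41, and were not called.

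**Figure D4:**
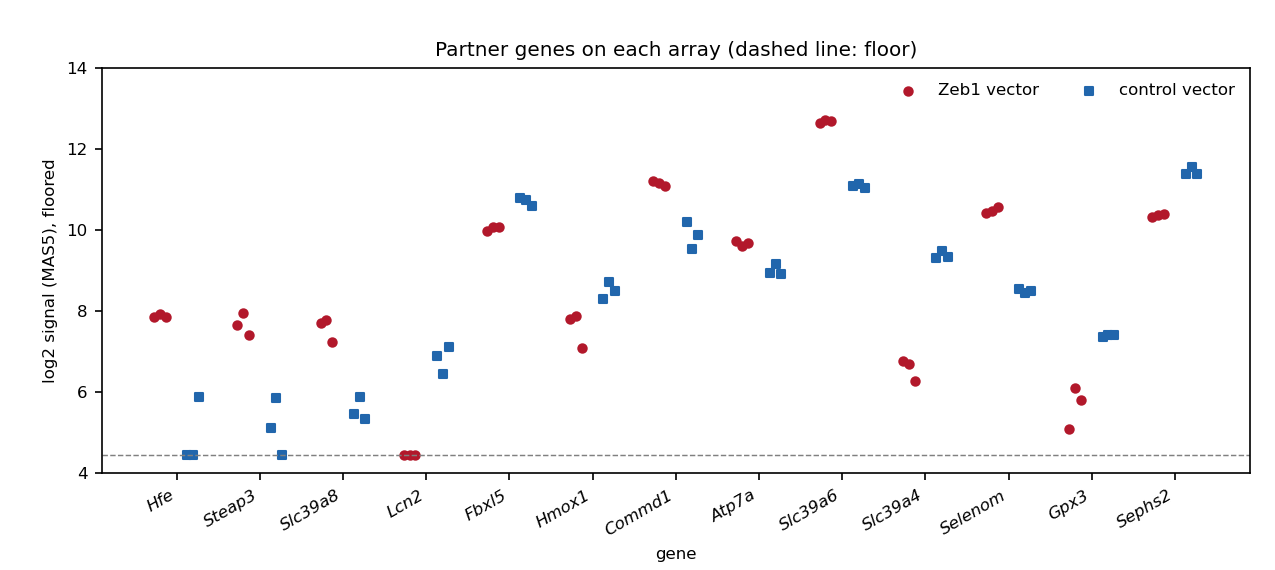
Log2 MAS5 signal with the floor applied (y axis) of 13 pathway genes (x axis), with 1 point per array, red circles for the 3 Zeb1 vector arrays and blue squares for the 3 control vector arrays. The groups do not overlap for any gene shown, Lcn2 lies at the floor (dashed line, 4.45) on all 3 Zeb1 vector arrays, and Hfe lies there on 2 control vector arrays. All 13 are called genes, so the lack of overlap was largely fixed by the choice. It held in 58.2% of all tested genes.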

How the data were processed

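A total of 6 Affymetrix expression arrays were used, 3 with the Zeb1 vector and 3 with the control vector. The deposited values are log2 signals of 45101 probe sets, made by the authors with MAS5, per the submitters' processing notes, which give no version here. MAS5 summarises each probe set within its array. Linear signals had a 2%-trimmed mean of 500 on every array. The 2 missing values were set to the floor. Signals were floored at the pooled 25th percentile, and a probe set entered the test if 3 or more arrays (2 or more when an array was left out) read it at or above that array's median. Symbols came from the platform annotation through Entrez identifiers in RefSeq's GRCm38.p6 gene table (34741 of 34945 probe sets with 1 symbol found, 0 changed). A gene was represented by its brightest tested probe set. Folds are called lower bounds where an array lay at the floor or the lower mean was under 6.32, the pooled median.

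Groups were compared with limma 3.58.1 in R 4.3.3 (lmFit, eBayes with intensity trend), adjusted by Benjamini-Hochberg over all genes or all probe sets tested. The code was tested on simulated data. Arrays number 3 per group, which limits precision: the median standard error of a log2 difference was 0.129. Members and lists were chosen with earlier results of these data known. The genes named are the members, 26 fixed partner genes, up to 3 called rises and 3 called falls per list, and the 3 genes nearest in pattern to Cp, Selenop and Mt1, besides marker genes and chromosomal neighbours named after their values were seen. Control probe sets (64) and probe sets with several (932) or no symbols (9160) were not tested.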

Additional observations from a re-analysis of the deposited data

How the results depend on the processing

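Fits were repeated with the floor at the 50th percentile or with none, with quantile normalization, with no filter or a stricter one (75th percentile), with the mean of a gene's probe sets, with no intensity trend, with the replicate number as a block, and without each array in turn. Of the counts of calls, 3 moved by over 1.5 times: iron uptake and traffic to 4 under the stricter filter, where fewer genes are tested, iron storage, export, sensing and haem turnover to 5 with no intensity trend, the cause of which was not tested, and selenium uptake and synthesis to 3 to 5 when 1 array was left out. Member probe sets called numbered 13 under the stricter filter, 15 with no intensity trend and 17 without control vector replicate 2. Of 690 refitted values of 50 partner genes, 41 lost a call, 5 gained one and 0 of the called ones changed sign. Of 338 values of member probe sets, 16 moved by more than the spread between replicates, all of them of Cp or Selenop with signals at the floor. Raising the floor to the 50th percentile gave differences of 1.56 for Hfe, 1.34 for Steap3, 1.25 for Slc39a8 and -1.07 for Gpx3, all still called. With no floor, or without any 1 of the Zeb1 vector arrays, another probe set of Zeb1 was the brightest, with a difference of 1.02 at the lowest, which was also called.

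Same-numbered arrays did not deviate together (r = 0.02, 0.01 and -0.04 across probe sets), and not every array correlated best with its own number. The main fit therefore did not pair them. The labels do not say whether same-numbered arrays were grown or processed together, and these correlations cannot exclude it. With the replicate block 5877 genes were called, against 6004 without it, and 16 member probe sets.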
